A study of Mus musculus with 21 samples.

Results

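The genes described here encode the proteins of the cytosolic ribosome. They were taken from the deposited table of expected counts as every row whose symbol has the form of a large-subunit (Rpl) or small-subunit (Rps) protein with a number, together with Rplp0, Rplp1, Rplp2 and Rpsa, which gave 84 of 24054 rows. A filter on low counts left 82 of them to be tested, and the 2 left out were Rpl10l and Rpl39l. The symbols of 84 members matched 1 gene each in GENCODE mouse release M21. Rps4l is annotated there as a transcribed processed pseudogene, a copy of a messenger RNA written back into the genome.

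The cytosolic ribosome is built from ribosomal RNA and about equal amounts of each ribosomal protein, with the small subunit reading the messenger RNA and the large subunit joining the amino acids. Most ribosomal protein messenger RNAs start with a short run of pyrimidines, the terminal oligopyrimidine (TOP) tract, through which the mTOR pathway controls their translation, so that ribosome output can change with little change in the messenger RNA. A few members have a paralogue used in particular tissues, and in heart and skeletal muscle Rpl3l, which is restricted to striated muscle, stands in for the ubiquitous Rpl3. Overloaded hearts enlarge by making more protein per cardiomyocyte, and ribosome supply is part of that growth.

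RNA sequencing covered 21 libraries of left ventricular myocardium from C57BL/6J mice, 1 per animal, each with its own ear tag. The 5 sham mice had surgery without constriction and no drug, and the 5 TAC mice had transverse aortic constriction (TAC), a narrowing of the aortic arch that raises left ventricular pressure, and no drug. Another 5 TAC mice received sildenafil, an inhibitor of the cGMP-degrading enzyme PDE5A, and 6 TAC mice received PF-04449613, an inhibitor of PDE9A. The inhibitors were given over 4 weeks, from 1 week after surgery, and neither doses nor a vehicle are named in the labels. The labels name no genetic modification, age or sex.

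Library totals ran from 22670467 to 40989905 counts. The members together took 1.60% ± 0.115 (SD, n = 5) of the counts in sham, 1.63% ± 0.0851 (n = 5) in TAC, 1.54% ± 0.0361 (n = 5) with the PDE5A inhibitor and 1.52% ± 0.107 (n = 6) with the PDE9A inhibitor. The shares of TAC, 1.57167% to 1.78084%, all lay above those with the PDE5A inhibitor, 1.49297% to 1.57044%, by a small gap, and the other pairs of groups overlapped. The pre-ribosomal RNA gene Rn45s took 0.192% to 0.416% of the counts, and its highest shares were in PDE9A inhibitor libraries 4 and 1. Ear tags fell into a 100s, a 500s and a 600s series that were spread unevenly over the groups, with 3 sham, 2 TAC, 0 PDE5A inhibitor and 1 PDE9A inhibitor mice in the 100s. The labels do not say that a series is a batch. Cardiomyocyte markers were present at 128448 to 223120 summed CPM (counts scaled to library size by TMM) in every sham and TAC library. In TAC against sham 6 of 12 cardiomyocyte markers fell, and 8 of 10 fibroblast and 10 of 10 activated fibroblast markers rose. Of 6 tested lymphocyte markers 4 rose, at low levels. Of 8 smooth muscle and pericyte markers 2 rose and 1 fell, and 1 of 10 endothelial and 1 of 9 macrophage markers fell. Of all genes tested, 12.2% were called higher and 13% lower. The summed activated fibroblast markers went from 180 to 288 CPM in sham to 903 to 5759 CPM in TAC. In bulk tissue, fewer cells of a type and less RNA per cell cannot be told apart, and the part of these shifts in the results on ribosomal protein genes was not tested.

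TOP messenger RNAs are known by a pyrimidine run at their first base, so sequences around the annotated starts of members that changed are shown first. Of the 84 members, 63 were found in a RefSeq table of promoters (GRCm38.p6) with 75 annotated starts, and the 21 others, among them Rpl3 and Rps29, are named only. Each window below runs 5′ to 3′ on the gene's strand, from 60 bases before the annotated start to 20 bases from it on. Capitals mark the longest unbroken run of C and T anywhere in the window, which need not be a TOP tract. The set holds members that fell in all 3 overloaded groups, with Rpl3l for contrast. All 5 genes are on the plus strand. The Rpl7a window is chr2:26910747-26910826. The Rpl38 window is chr11:114668520-114668599. The Rplp0 window is chr5:115559407-115559486. The Rps2 window is chr17:24720003-24720082. The Rpl3l window is chr17:24727766-24727845.
Rpl7a: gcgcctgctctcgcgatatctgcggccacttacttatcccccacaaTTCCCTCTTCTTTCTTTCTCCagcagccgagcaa
Rpl38: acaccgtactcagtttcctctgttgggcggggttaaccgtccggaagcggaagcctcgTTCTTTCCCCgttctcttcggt
Rplp0: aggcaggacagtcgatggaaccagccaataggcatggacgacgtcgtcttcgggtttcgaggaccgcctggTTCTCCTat
Rps2: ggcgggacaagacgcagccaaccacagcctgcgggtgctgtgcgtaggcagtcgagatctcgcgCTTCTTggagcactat
Rpl3l: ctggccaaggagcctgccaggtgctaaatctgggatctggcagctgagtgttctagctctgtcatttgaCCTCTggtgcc

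The Rpl7a run was 21 bases long and crossed the annotated start, and the Rpl38 run was 10 bases long and began 2 bases before it. The runs of Rplp0 and Rps2 were 7 and 6 bases long and began after the start, at bases 12 and 5. That of Rpl3l was 5 bases long and began at base 10. Over the 50 bases on either side of the start, the longest run had a median of 10 bases in the 75 member windows and 7 bases in all 32851 windows of the table. A run of at least 8 bases was present in 77.3% of member windows and 35.7% of all windows. A C at the start followed by 4 pyrimidines, the strict form of a TOP start, was present in 17.3% of member windows and 2.51% of all windows. That count took the annotated base as exact, so it can miss a start annotated a few bases off. Rpl7a, whose 21-base run crossed its annotated start, was not counted. Of the windows shown, only that of Rpl38 had the strict form. Over the 300-base windows, searched on both strands, CTTTCC was found in 49.3% of member windows and 26.6% of all windows. CCGGAAG, a core of ETS factor sites, was found in 36% of member windows and 8.86% of all windows, and it ends in the AAG with which AAGATGG begins, so that matches to these motifs can overlap. AAGATGG, a core of YY1 sites, was in 16% and 6.34%, TATAAA in 9.33% and 13.6%, CACGTG in 10.7% and 7.15%, and TGACGTCA in 6.67% and 1.79%. Small nucleolar RNA genes on the same strand, between the gene's start and end, were also counted. Of 84 members 30 held at least 1 and 54 held none, and Rpl4 held 5. At least 1 was held by 1.62% of the 12901 tested protein-coding genes.

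Levels were compared between genes as CPM per kb of the shortest protein-coding transcript. Such levels, and shares of a pair made from them, depend on the annotated length. That length was 495 bases for Rpl13a and 3706 bases for Rps20 (38.7 CPM per kb), so the order of members is uncertain. The 82 tested members had a median of 272 CPM per kb over all libraries, and quartiles of 170 and 352 CPM per kb. The highest were Rps2 at 641 CPM per kb, Rps24 at 624.6 CPM per kb and Rpl13a at 592 CPM per kb. The lowest were Rps27 at 6.20 CPM per kb, Rpl30 at 12.1 CPM per kb and Rps4l at 19.7 CPM per kb, and 8 members were under 40 CPM per kb. Ribosomal protein genes have many near-identical processed copies, and RSEM divides a read that fits several genes, which leaves decimals in the counts. Rpl30, Rpl26 and Rpl34 had counts with decimals in 21 of 21 libraries, and 36 members had them in at least 15. Rps27, a zinc-binding protein of the small subunit, is the plainest case: its CPM in sham libraries 1 to 5 was 0.756, 0.630, 12.7, 0.531 and 1.01, while its copy Rps27rt had 159, 168, 168, 157 and 148 CPM. The levels and fold changes of such members are uncertain, and the part of read division in them was not tested.

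**Figure D1:**
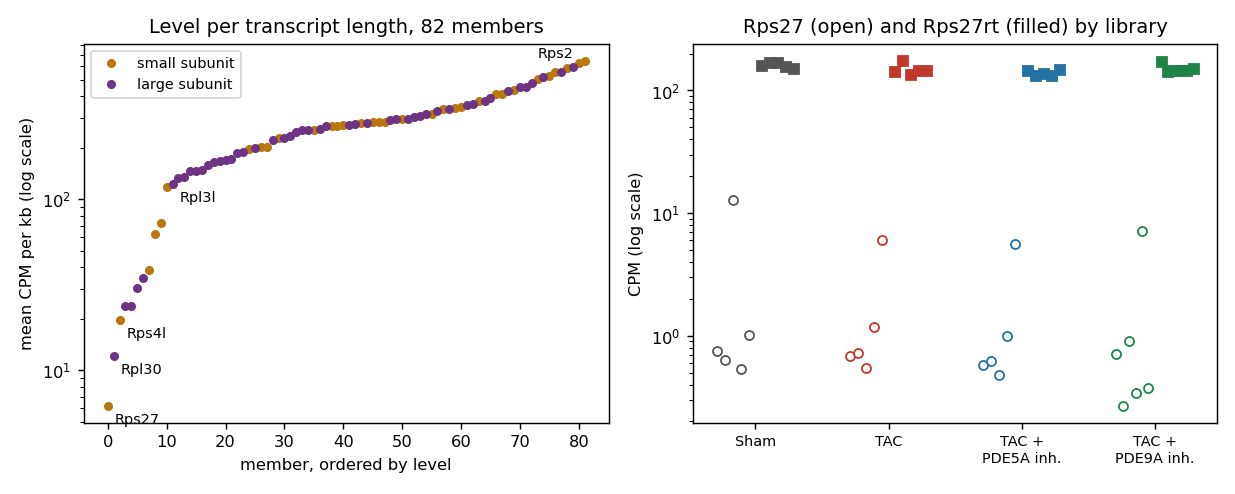
Left, mean CPM per kb (log scale) of the 82 tested members in order of level, coloured by subunit, with a median of 272 CPM per kb and Rps27 lowest at 6.20. Right, CPM (log scale) of Rps27 (open) and its copy Rps27rt (filled) in each library of the 4 groups: Rps27rt lies above 130 in every library and Rps27 lies below 13.

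In TAC against sham, 9 of 82 members passed the test. Rpl3 and Rpl22 rose, and Rps2, Rps29, Rpl7a, Rpl3l, Rpl38, Rplp0 and Rps13 fell. Over all 14135 genes tested, 25.2% were called, 12.2% higher and 13% lower. The members' median log2 fold change was -0.05, against -0.00 over all genes, and 71 of 82 lay within 0.2 of 0. Within the 100s ear tag series the median was -0.11 and within the 600s series 0.07, with 0 members called in either. The log2 fold change was below 0 in 61 of 82 members, 25 of 33 in the small and 36 of 49 in the large subunit, but in 26 of 82 when libraries were scaled by total counts alone, a scaling under which the median of all genes was 0.09. That scaling called 5 members higher (Rpl22, Rpl3, Rpl39, Rpl4 and Rps27a) and 2 lower (Rpl3l and Rps2), so that the direction of Rpl3, Rpl22, Rpl3l and Rps2 did not turn on it. Only 5 members had groups that did not overlap, 1 higher and 4 lower, against 16.5% of all genes. The test was edgeR's quasi-likelihood test with Benjamini-Hochberg adjustment over all genes, called at an adjusted p under 0.05. The count was 4 when sham library 1, TAC library 1 or TAC library 4 was left out and 3 when TAC library 3 was.

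**Figure D2:**
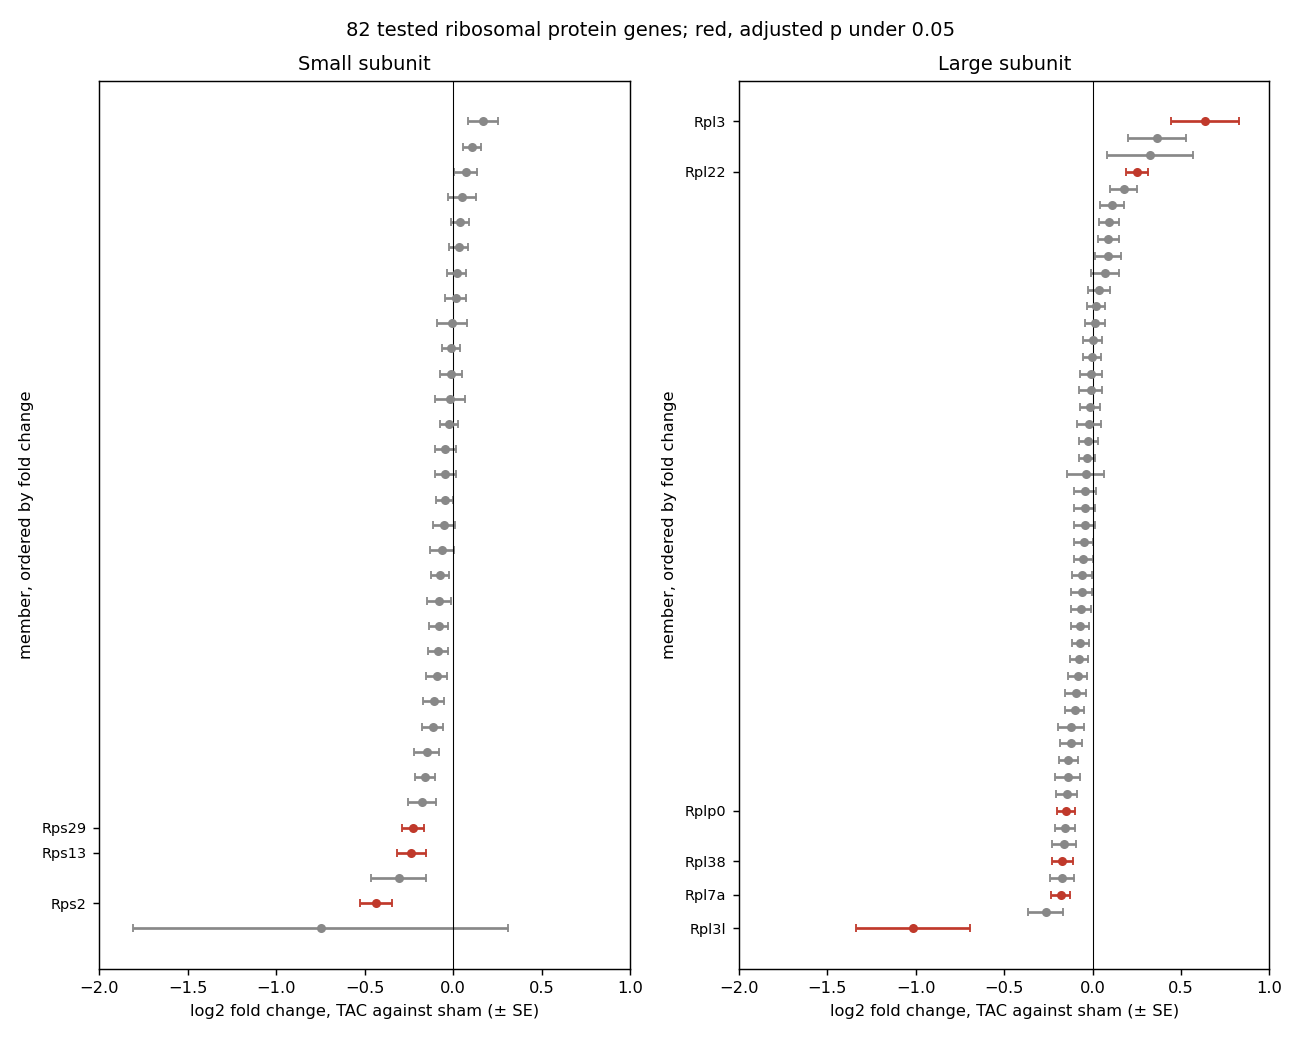
Log2 fold change in TAC against sham (5 libraries each) of the 33 small-subunit and 49 large-subunit members tested, with bars of 1 standard error. The 9 called members are red and named, from Rpl3l at -1.02 to Rpl3 at 0.64, and 71 members lie within 0.2 of 0.

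The largest called changes were in the paralogues of uL3, the large-subunit protein next to the peptidyl transferase centre, with Rpl3l lower and Rpl3 higher. Whether both changed within the same cells was not tested. Rpl3l (chr17:24727820-24736143, plus strand) had 188, 163, 181, 202 and 164 CPM in sham libraries 1 to 5 and 63.7, 150, 58.9, 37.4 and 134 CPM in TAC libraries 1 to 5. All TAC libraries lay below all sham libraries, 3 of them far below and 2 close to the sham range. Rpl3l fell by 1.02 on the log2 scale (SE 0.32, adjusted p = 0.0279 by edgeR). Rpl3 (chr15:80077791-80091868, minus strand) had 190, 213, 201, 146 and 165 CPM in sham and 293, 181, 340, 392.4 and 215 CPM in TAC. The groups overlapped through TAC library 2, and Rpl3 rose by 0.64 (SE 0.19, adjusted p = 0.0222 by edgeR). The 3 TAC hearts with the lowest Rpl3l, libraries 1, 3 and 4, were the 3 with the highest Rpl3.

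In CPM not divided by length, the sham means were 180 for Rpl3l and 183 for Rpl3. Shares per kb depend on the lengths used, 1033 bases for Rpl3l and 1351 bases for Rpl3. Per kb, Rpl3l made up 56.3% ± 5.21 (SD, n = 5) of the summed Rpl3 and Rpl3l level in sham and 29.7% ± 17.7 (n = 5) in TAC. The single TAC hearts had 22.2%, 52.0%, 18.5%, 11.1% and 44.9%, against 50.1% to 64.3% in sham, so that TAC library 2 lay within the sham range. With the PDE5A inhibitor the share was 37.9% ± 11.5 (n = 5) and with the PDE9A inhibitor 45.2% ± 13.1 (n = 6), each overlapping TAC. The calls depended on single libraries. The call of Rpl3l was lost when any of sham libraries 1 and 4 and TAC libraries 1, 3 and 4 was left out (adjusted p 0.0528 to 0.0805), and that of Rpl3 when sham library 4, TAC library 3 or TAC library 4 was (0.50 to 0.57, adjusted p 0.0604 to 0.0831). Within ear tag series the directions stayed: Rpl3l was at -0.72 in the 100s and -1.09 in the 600s, and Rpl3 at 0.24 and 0.97, with adjusted p of 0.148 to 0.512 in fits of 2 or 3 libraries a group.

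**Figure D3:**
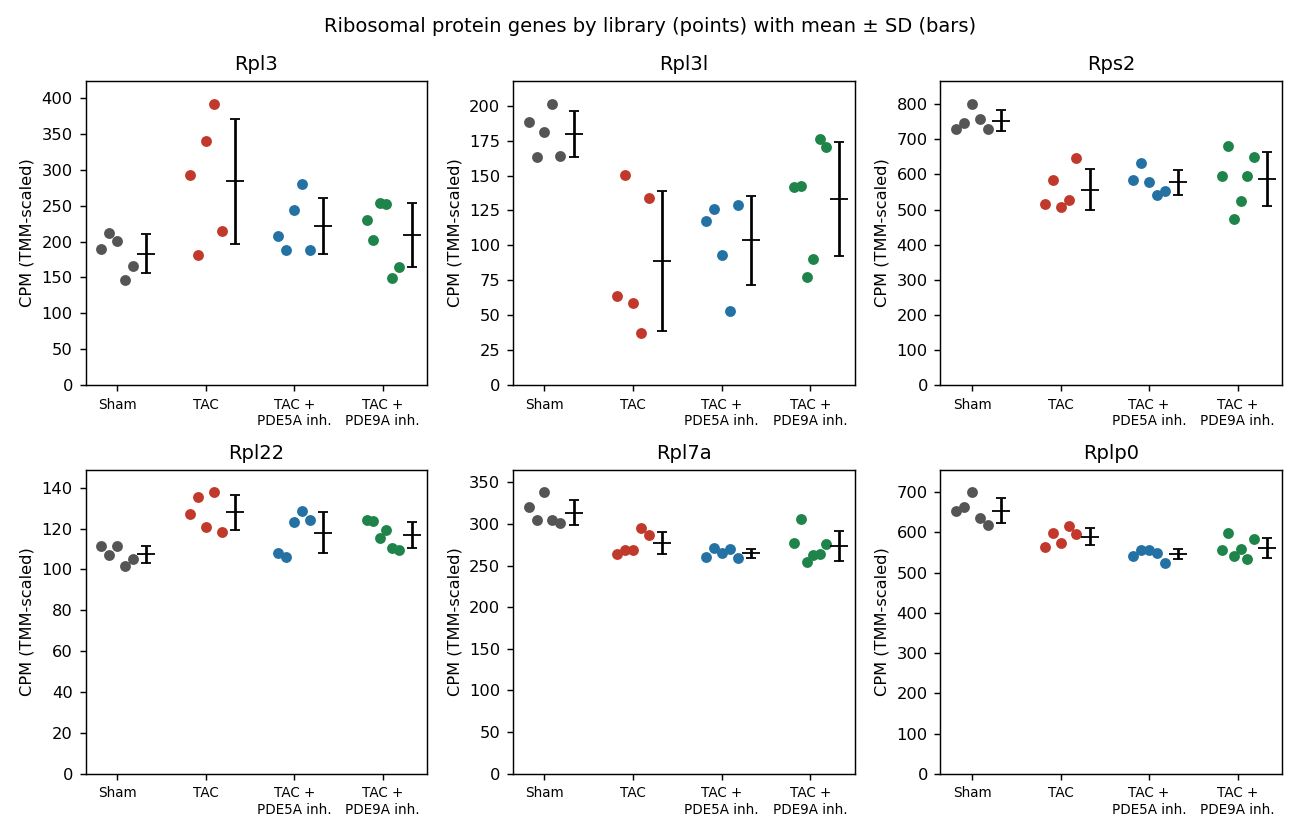
TMM-scaled CPM of Rpl3, Rpl3l, Rps2, Rpl22, Rpl7a and Rplp0 in each of the 21 libraries (points) with the mean ± SD of each group (bars). Rpl3l runs from 37.4 to 150 CPM in TAC and from 163 to 202 CPM in sham, and Rps2 lies lower in each overloaded library than in any sham library.

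Across the 16 overloaded hearts the paralogues varied against each other. The permutations below shuffled hearts across groups, so their p also count differences between group means. Pearson's r between log2 CPM of Rpl3l and Rpl3 was -0.945 and Spearman's rho -0.921, each with the smallest p that 100000 permutations can give (1e-05; adjusted over 14 relations, 3.5e-05 and 4.7e-05). Without the 2 hearts farthest from the median of Rpl3l, r was -0.935, and after removal of group means it was -0.943. Within the ear tag series r was -0.972 (500s, n = 7) and -0.967 (600s, n = 6). Nppa, the atrial natriuretic peptide gene that rises with ventricular load, ran with low Rpl3l (r -0.931, rho -0.956, permutation p 1e-05 each) and with high Rpl3 (r 0.887, rho 0.912, permutation p 1e-05 each). Without the 2 hearts farthest in Nppa these r were -0.939 and 0.860, and after removal of group means -0.913 and 0.874. Within the 500s and 600s series they were -0.967 and -0.935 for Rpl3l and 0.955 and 0.907 for Rpl3. Nppa in TAC was 3574, 409, 4542, 4078 and 981 CPM, so its low hearts, libraries 2 and 5, were those with Rpl3l near sham. Over the 11 inhibitor-treated hearts alone, r between Rpl3l and Rpl3 was -0.886 (rho -0.891, permutation p 0.00023 and 0.00046, adjusted 0.000537 and 0.000805; r -0.863 without 2 hearts) and between Nppa and Rpl3l -0.938 (rho -0.936, permutation p 2.0e-05 and 9.0e-05, adjusted 5.6e-05 and 0.000252; r -0.902 without 2 hearts). Postn, a matrix gene of activated fibroblasts, ran with Rpl3 as well (r 0.884, rho 0.885 over 16 hearts, permutation p 1e-05 and 2.0e-05; r 0.845 without 2 hearts), and which of load or cell makeup the relation follows was not tested.

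**Figure D4:**
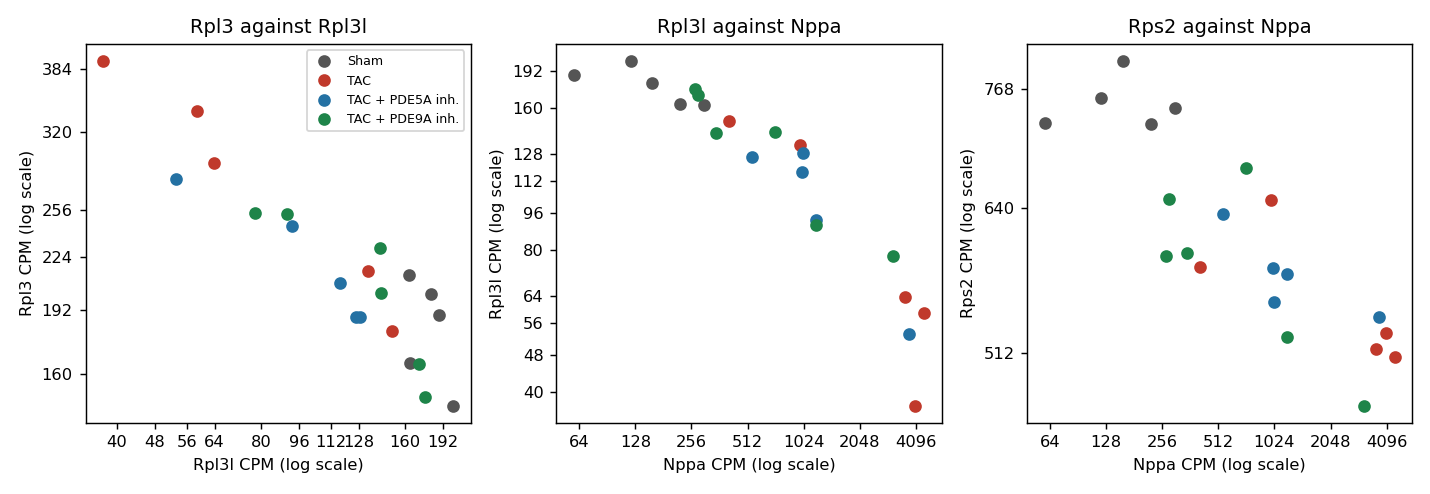
Each point is a heart, on log-scaled CPM axes: Rpl3 against Rpl3l, Rpl3l against Nppa and Rps2 against Nppa, coloured by group. Over the 16 overloaded hearts r was -0.945, -0.931 and -0.746.

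Rps2, a small-subunit protein (uS5) at the messenger RNA entry channel, was the member with the lowest adjusted p. It had 730, 746, 802, 757 and 728 CPM in sham libraries 1 to 5 and 515, 584, 509, 528 and 648 CPM in TAC. All TAC libraries lay below all sham libraries, and Rps2 fell by 0.43 (SE 0.089, adjusted p = 0.00402 by edgeR). Its level in the overloaded hearts also ran against Nppa (r -0.746, rho -0.821, permutation p 0.00098 and 0.00017, adjusted 0.00196 and 0.000397; r -0.696 without 2 hearts, -0.758 in the 500s and -0.834 in the 600s) and with Rpl3l (r 0.724, rho 0.794, permutation p 0.00166 and 0.00033, adjusted 0.0029 and 0.00066; r 0.788 without 2 hearts, 0.799 in the 500s and 0.821 in the 600s). After removal of group means, r of Rps2 was -0.763 with Nppa and 0.730 with Rpl3l. Within ear tag series the log2 fold change of Rps2 in TAC was -0.46 (100s) and -0.33 (600s). Rps2 counts had decimals in 21 libraries.

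Rpl22, a large-subunit protein (eL22) that can be lost without stopping translation, had 112, 107, 111, 102 and 105 CPM in sham and 127, 135, 121, 138 and 118 CPM in TAC. The groups did not overlap, and Rpl22 rose by 0.25 (SE 0.062, adjusted p = 0.00893 by edgeR). Its paralogue Rpl22l1, whose RNA Rpl22 is known to repress in other cells, had 14.7, 13.6, 15.9, 14.7 and 13.2 CPM in sham and 11.1, 12.8, 12.2, 13.8 and 10.02 CPM in TAC, a log2 difference of -0.27 that did not pass (adjusted p = 0.0572 by edgeR). Per kb, Rpl22l1 made up 10.8% ± 0.639 (SD, n = 5) of the pair in sham and 7.78% ± 0.568 (n = 5) in TAC. All TAC hearts, at 7.10% to 8.35%, lay below all sham hearts, at 10.2% to 11.5%. This share includes the change of Rpl22 given above. Rpl22l1 counts had decimals in 21 libraries and Rpl22 counts in 20, and the part of read division in the share was not tested. Nppa and Rpl22 were not related beyond the permutation test (r 0.42, rho 0.406 over 16 hearts, permutation p 0.107 and 0.119). Without the 2 hearts farthest in Nppa r was 0.316, and after removal of group means it was 0.268. Within ear tag series r was 0.488 (500s, n = 7) and 0.948 (600s, n = 6).

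The other called members moved by less than 0.25. Rplp0, the scaffold of the acidic stalk that recruits elongation factors and a common reference gene in quantitative PCR, had 652, 663, 700, 637 and 619 CPM in sham and 563, 599, 573, 615 and 595 CPM in TAC, and fell by 0.15 (SE 0.052, adjusted p = 0.0375 by edgeR). All TAC libraries lay below all sham libraries for Rplp0. Rpl7a (eL8) fell by 0.18 (SE 0.055, adjusted p = 0.0226 by edgeR), from 301 to 338 CPM in sham to 264 to 295 CPM in TAC, again with no overlap. Rpl38 (eL38), needed for the patterning of the skeleton in mice, had 102 to 127 CPM in sham and 95.3 to 104 CPM in TAC. Rps13 (uS15) had 159 to 217 CPM in sham and 153 to 166 CPM in TAC, and Rps29 (uS14), a zinc-binding protein, had 215 to 252 and 186 to 215 CPM. Their falls were 0.17, 0.24 and 0.23, with adjusted p of 0.0364, 0.0383 and 0.0152 by edgeR. The 5 changes named here all lost their call under total-count scaling, and Rplp0 kept it in 5 of 23 alternatives.

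No member of the remaining paralogue pairs passed the test in TAC. Rpl7 had 332 to 374 CPM in sham and 330 to 366 CPM in TAC (log2 -0.00), and Rpl7l1, which takes part in ribosome assembly, differed by -0.16 (adjusted p = 0.0772 by edgeR). Rpl39 differed by 0.17 (adjusted p = 0.092 by edgeR), and its testis-enriched paralogue Rpl39l had at most 11 counts in a library. Rpl10l, the testis paralogue of Rpl10, had 8 counts over all libraries. Rps4x, on the X chromosome, differed by -0.01 and Rps4l by -0.31 (adjusted p = 0.895 and 0.144 by edgeR). Rps27l, a paralogue induced by p53, differed by -0.02 (adjusted p = 0.902 by edgeR). The difference of Rps27, -0.75 with SE 1.06, rests on sham library 3.

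Lists of other genes of ribosome supply held called genes in both directions in TAC, and their counts are to be read against the 25.2% of all genes called in that comparison, 12.2% higher and 13% lower. Among ribosomal parts outside the naming rule, Fau, Rpl36al and Gnb2l1 (now called Rack1) did not pass the test, at 0.03, -0.03 and -0.01 (adjusted p = 0.704, 0.704 and 0.88 by edgeR). Of 36 initiation factors, 3 rose and 3 fell: Eif3a, the largest subunit of eIF3, rose by 0.36, Eif4e2 by 0.24 and Eif4b by 0.23, and Eif4a2, a helicase, fell by 0.34. Of 11 elongation and termination genes 1 changed: Eef1a1, the factor that brings aminoacyl-tRNA to the ribosome and itself a TOP messenger RNA, had 1402 ± 254 CPM in TAC and 952 ± 104 CPM in sham (SD, n = 5 each) and rose by 0.56 (SE 0.16, adjusted p = 0.0162 by edgeR). Of 17 other TOP messenger RNAs 3 rose (Eef1a1, Eif4b and Nap1l1) and 0 fell, with a median of 0.03.

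Of 15 RNA polymerase I genes 2 rose and 2 fell, with Polr1a, the largest subunit of the enzyme, falling by 0.42. Of 61 ribosome assembly genes 9 rose and 5 fell: Rrs1, which brings 5S RNA into the large subunit, fell by 0.54, and Tsr1 and Pes1, which act on the small and the large subunit, rose by 0.34 and 0.27. Of 39 genes of mTOR and TOP control 1 rose, Rps6kb1 (a kinase of Rps6), at 0.22, and 6 fell, among them Max (-0.43), Nprl2 (-0.33) and Eif4ebp2 (-0.45). Of 12 ribosome quality control genes 1 rose (Tcf25) and 1 fell (Usp10), and of 8 small nucleolar RNA host genes 1 rose (1500012F01Rik, now called Zfas1). The medians were 0.05, 0.04, -0.07, -0.09 and 0.24 in these 5 lists, against -0.00 over all genes. The counts called in these lists lie near or below the 25.2% of all genes called, so they set none of the lists apart.

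No member passed the test against TAC with either inhibitor. With the PDE5A inhibitor 0 of 82 members were called, against 0.0141% of all genes, and DESeq2 also called 0. The members' log2 fold changes were below 0 in 78 of 82, with a median of -0.10, against -0.00 over all genes. At an unadjusted p under 0.05 there were 20 members, all of them lower, against 5.17% of all genes. In 12 members all treated libraries lay below all TAC libraries, against 0.601% of all genes. The lowest p was that of Rpl19 (eL19), at 294, 299, 293, 310 and 294 CPM in TAC and 267, 259, 279, 280 and 261 CPM with the inhibitor. These values do not overlap, yet the log2 difference of -0.15 (SE 0.05) had an adjusted p of 0.947 by edgeR. Rps18 was at -0.13 with the same adjusted p. Members were not independent of each other: after removal of group means, the 3321 pairs of members had a median r of 0.546 over the 21 libraries.

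With ear tag series added to the model, the median was -0.07 and 2 members had an unadjusted p under 0.05. In the 600s series alone, with 3 treated and 2 TAC hearts, the median was -0.11 and 79 of 83 members were below 0. The value of Rpl3 with the PDE5A inhibitor was 208, 188, 244, 280 and 188 CPM and that of Rpl3l 117, 126, 92.8, 53.0 and 129 CPM. Library 4 was the highest in Rpl3 and the lowest in Rpl3l, and both genes overlapped TAC. The log2 differences from TAC were -0.36 (SE 0.19) for Rpl3 and 0.22 (SE 0.32) for Rpl3l, with adjusted p of 0.962 and 0.964 by edgeR.

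With the PDE9A inhibitor 0 of 82 members were called against TAC, against 0.00707% of all genes, and DESeq2 also called 0. The log2 fold changes were below 0 in 77 of 82, with a median of -0.06 against 0.00 over all genes. An unadjusted p under 0.05 was found in 10 members, all lower, against 14.6% of all genes, and 1 member had no overlap, lower, against 0.311% of all genes. Rps27a, which is made as a fusion with ubiquitin, had the lowest p: it ran from 152 to 162 CPM in TAC and had a lowest, median and highest value of 130, 138 and 152 CPM with the inhibitor (log2 -0.16, adjusted p = 0.254 by edgeR). Rpl30 differed by -0.42 and Rps27l by -0.20 (adjusted p = 0.27 and 0.29 by edgeR), and the Rpl30 value in TAC rests on library 4 (11.3 CPM, the others 5.97 to 7.04). Rpl3 had a lowest, median and highest value of 150, 216 and 254 CPM, and Rpl3l of 77.6, 142 and 176 CPM. Both overlapped TAC, at log2 differences of -0.45 (SE 0.18) and 0.58 (SE 0.31), with adjusted p of 0.291 and 0.383 by edgeR. These comparisons use the same 5 TAC libraries as those with the PDE5A inhibitor.

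No member passed the test between the inhibitor groups. Of 82 members 0 were called in PDE5A inhibitor against PDE9A inhibitor, against 0.00707% of all genes, by edgeR and by DESeq2, and 2 members had an unadjusted p under 0.05, against 10.4% of all genes. The median was -0.03 and 55 of 82 were below 0, but 26 of 82 under total-count scaling. Sildenafil and PF-04449613 inhibit different enzymes, and the drugs' doses were not given, so they cannot be set against each other at a matched dose. The lowest p were those of Rps4l (-0.35), Rpl21 (-0.11) and Rps9 (-0.09), with adjusted p of 0.431, 0.476 and 0.552 by edgeR. The log2 difference of Rpl3l was -0.36 (SE 0.31) and that of Rpl3 0.09 (SE 0.18).

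**Figure D5:**
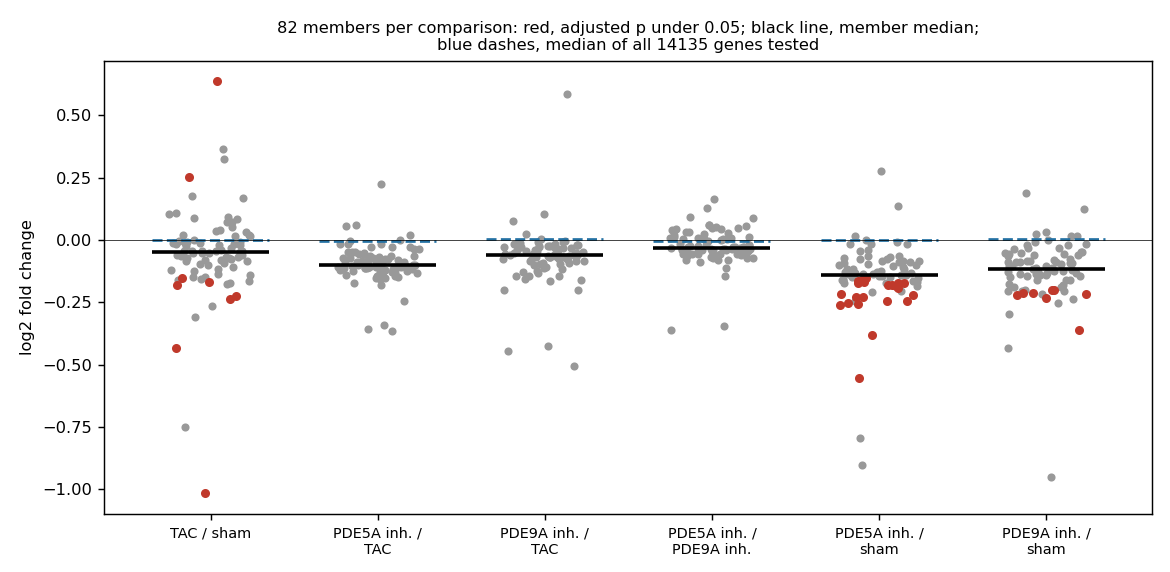
Log2 fold change of the 82 members in each of the 6 comparisons, with called members in red, the members' median as a black line and the median of all 14135 genes as blue dashes. The members' medians run from -0.03 to -0.14, and called members appear only in the comparisons against sham.

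Against sham, members fell in both inhibitor groups, by small amounts and with counts that depended on the processing. With the PDE5A inhibitor 23 of 82 members fell and 0 rose, against 14.6% of all genes called in either direction and 7.8% lower, and the median was -0.14. In 25 members all treated libraries lay below all sham libraries, against 8.75% of all genes. Rplp0 fell by 0.26, Rpl7a by 0.24, Rps2 by 0.38, Rpl24 by 0.26 and Rps15a by 0.23, with adjusted p of 0.00673, 0.0105, 0.0124, 0.0146 and 0.0178 by edgeR. Rplp0 had 542, 555, 557, 549 and 525 CPM with the inhibitor, and every one of these lay below the lowest sham value. The count was 3 under total-count scaling (Rpl22 higher, Rps2 and Rps4l lower), 1 with ear tag series added to the model and 0 in the 600s series alone. It was 6, 8 and 5 without sham library 1, 2 or 3, and 11, 13, 8, 4 and 7 without PDE5A inhibitor library 1, 2, 3, 4 or 5. In the same comparison 4 of 12 cardiomyocyte markers fell, and 5 of 10 fibroblast, 10 of 10 activated fibroblast and 3 of 6 lymphocyte markers rose. Summed activated fibroblast markers ran from 630 to 3428 CPM with the inhibitor, above all sham libraries, and summed cardiomyocyte markers from 144636 to 183411 CPM, below all of them, and their part in the members' count was not tested. Rpl3 differed from sham by 0.28 and Rpl3l by -0.79 (adjusted p = 0.317 and 0.0949 by edgeR).

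With the PDE9A inhibitor 8 of 82 members fell against sham and 0 rose, against 3.82% of all genes called in either direction and 1.65% lower, and the median was -0.12. In 5 members all treated libraries lay below all sham libraries, against 1.87% of all genes. Rplp0 fell by 0.22, Rps2 by 0.36, Rpl27 by 0.21, Rpl38 by 0.22 and Rpl24 by 0.23, with adjusted p of 0.0273, 0.0301, 0.0301, 0.0339 and 0.0376 by edgeR. Rps2 had a lowest, median and highest value of 472, 596 and 680 CPM, all below the sham values. The count was 0 with ear tag series added to the model and 1 under total-count scaling, where Rps2 alone was called. It was 0 with any of sham libraries 1 to 4 or PDE9A inhibitor libraries 3 and 4 left out, and 1, 19 and 13 without PDE9A inhibitor library 1, 2 or 6. Of the markers, 0 of 12 cardiomyocyte, 2 of 10 fibroblast, 5 of 10 activated fibroblast and 0 of 6 lymphocyte genes were called, the called ones higher, and 2 of 10 endothelial markers fell. Summed activated fibroblast markers ran from 255 to 2838 CPM and cardiomyocyte markers from 155149 to 221032 CPM, both overlapping sham, and their part in the members' count was not tested. Rpl3 differed from sham by 0.19 and Rpl3l by -0.43 (adjusted p = 0.517 and 0.365 by edgeR). Rpl38, Rpl7a, Rplp0 and Rps2 were called lower against sham in all 3 overloaded groups, which share the 5 sham libraries. The sham libraries of the 100s series had member shares of 1.59%, 1.65% and 1.77% of counts and those of the 600s series 1.46% and 1.55%, with no overlap. In TAC the order was the reverse, at 1.57% and 1.60% in the 100s and 1.78% and 1.61% in the 600s. With the PDE9A inhibitor, library 1 (100s) had 1.64% and library 6 (600s) 1.42%. The part of the series in these calls was not tested further.

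The members moved together from library to library, with some exceptions. Of the 82, 56 had a median r above 0.5 with the other members after removal of group means, as a description over 21 libraries that share their depth and scaling. The lowest medians were those of Rps4l (-0.21), Rpl30 (-0.14), Rpl26 (0.03), Rpl3l (0.04) and Rps27 (0.11). Rpl3 and Rpl3l had the lowest r of all 3321 pairs, at -0.905. Of these 5 low members, Rpl30, Rpl26 and Rps27 had counts with decimals in 20 or 21 libraries. So did members that moved with the others, such as Rpl37, Rpl17 and Rps24 (median r 0.72, 0.70 and 0.68). Of the 82 members, 36 had decimals in at least 15 libraries. The part of read division in the low medians was not tested.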

How the data were processed

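The authors deposited RSEM expected counts per gene symbol, 1 column per library, not scaled between libraries; 19% of the values had decimals. Per the submitters' processing notes, the tools were RSEM 1.3.0, HISAT2 2.0.5, CASAVA 1.8.4 and, for unstated use, DESeq2 1.18.1, and the build was mm10. No source used here names the gene annotation. Libraries were stranded total RNA from 500 ng, per the labels' protocols.

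Expected counts were rounded, 14135 genes passed filterByExpr by group, and edgeR 4.0.16 in R 4.3.3 (TMM, robust quasi-likelihood fit, a mean per group, all 21 libraries) gave log2 fold changes, SE and Benjamini-Hochberg adjusted p over all genes, called under 0.05. A total of 27 rows with a date in place of a symbol were counted as genes and named nowhere. DESeq2 1.42.0 was an alternative. The fit was tested on simulated data. P-values measure the spread between animals. Permutation tests were two-sided. Fold changes with no unit are log2.

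Members and gene lists were chosen with earlier results of these data known. Named with values are the paralogue pairs, called members (up to 10 per direction in TAC against sham, up to 5 elsewhere, or the 3 with the lowest p), the 3 highest and 3 lowest members per kb, and up to 4 called genes per pathway list. Genome positions are from GENCODE M21 (GRCm38) and span all transcripts. Alternatives are in the closing section. The lowest chi-square per degree of freedom between libraries of a group was 12.1, so no 2 libraries were merged. Some items are not reported here.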

Additional observations from a re-analysis of the deposited data

Results flagged for a closer look

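Over 30 named members in 4 groups each (120 groups), 8 had a library far from the rest of its group; chance gives about 1 in 20 such groups. Rps27 stood out in every group, at 12.7 CPM in sham library 3 (next 1.01), 6.02 in TAC library 5 (next 1.183), 5.59 in PDE5A inhibitor library 5 (next 1.00) and 7.13 in PDE9A inhibitor library 5 (next 0.905). Rpl30 was at 11.3 CPM in TAC library 4 (next 7.04), and Rps4l at 25.6 CPM in sham library 2 (next 17.1). TAC library 2 had the highest Rpl21, 252 CPM (next 232), and the highest Rps27a, 162 CPM (next 154).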

How the results depend on the processing

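All values here are for TAC against sham unless another comparison is named. Rpl3, Rpl3l, Rps2 and Rpl22 kept their direction under every alternative run. Members called (9) were 15 with DESeq2 and 0 in the 100s, the 600s or the 500s and 600s ear tags alone, fits that hold fewer libraries; these and the fit without PDE9A inhibitor libraries 1 and 4 were chosen after seeing the data. For the PDE5A inhibitor against sham (23) the count was 12 with no filter, 15 with at least 1 CPM in every library, 12 with upper-quartile scaling, 3 with total-count scaling, 1 with ear tag series in the model, 0 in the 600s alone, 0 in the 500s and 600s, and 34 with DESeq2. For the PDE9A inhibitor against sham (8) it was 3 with no filter, 1 with total-count scaling, 18 with DESeq2, and 0 with ear tag series in the model, with only the 2 groups, without PDE9A inhibitor libraries 1 and 4, and in the 500s and 600s. Leaving out each library gave 3 to 13, 4 to 33 and 0 to 19 in these 3 comparisons, and 0 in the others. The cause of these shifts was not tested.

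Replicate numbers do not pair the animals, whose ear tags all differ: 8 of 30 same-numbered pairs had r above 0.1 (-0.225 to 0.564), and 3 of 21 libraries correlated best with their own number. With the replicate block, 6 members were called in TAC against sham, 15 with the PDE5A inhibitor and 13 with the PDE9A inhibitor against sham.

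Reversals were in values near 0 or in Rps27. Rpl7 was at 0.0193 (1 CPM in every library), 0.0207 (upper quartile), 0.0843 (total count), 0.0129 (ear tag series in the model), 0.00856 (only the 2 groups), 0.0665 (500s and 600s) and 0.103 (600s), and from -0.0182 to 0.0354 with each library left out. Rps27l was at 0.00531, 0.00765 and 0.0716 under the first 3 of these, 0.0962 (500s and 600s) and 0.119 (600s), and from -0.0623 to 0.0615. Rps4x was at 0.00826, 0.0099 and 0.0721 under those 3, 0.0164 (ear tag series in the model), 0.0563 (500s and 600s) and 0.0677 (600s), and from -0.0397 to 0.0215. Rps27 was at 1.77 (500s and 600s) and 2.26 (600s), and from -1.97 to 1.35. Rpl10 was at -0.0415 in the 100s. In PDE5A against PDE9A inhibitor Rpl3 was at -0.00952 without PDE5A inhibitor library 4 and up to 0.15 with others left out.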

Other observations

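Rps2 and Rpl3l, the members with the lowest adjusted p and the largest called fall in TAC against sham, lie 5890 bases apart on chromosome 17, on the same strand. The neighbourhood was looked at after these values were seen. Ndufb10, a subunit of respiratory complex I that lies between them on the other strand, also fell, by 0.41 (SE 0.12, adjusted p = 0.0215 by edgeR). Of all genes tested, 13% were called lower, so this 1 further call does not set the region apart. Msrb1, which follows Rpl3l, differed by 0.19 (adjusted p = 0.269 by edgeR), and Tbl3, Gfer, Zfp598 and Noxo1 on the other side were not called either (log2 -0.08, 0.02, 0.15 and 0.79). The small nucleolar RNA genes Snora78 and Snora64 within or opposite Rps2 were at 5.68 and 0.611 CPM in sham and were not called.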
